A study of Mus musculus with 6 samples.

Results

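The genes described here encode serpins, cystatins and stefins, Kazal, Kunitz and whey acidic protein (WAP) inhibitors, and tissue inhibitors of metalloproteinases. They were taken by symbol: every gene starting with Serpin, Spink, Wfdc, Stfa or Timp, or with Cst but not Cstf, together with Slpi, BC100530, Spint1 and Spint2, and leaving out Spink5. Of the 12894 genes measured, 43 fitted this rule, out of 123 annotated mouse symbols that do. They comprised 14 clade B serpins, 9 other serpins, 9 cystatins and stefins, 4 WAP inhibitors, 3 Kazal inhibitors, 2 Kunitz inhibitors and 2 Timp genes. All 43 passed the filter on low values, which asked for more than 1 normalized count in at least 3 of the 6 libraries. Serpina3b passed it through the controls alone and Spink12 through the libraries labelled knockout alone.

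The samples were epidermis, separated from dermis, of newborn C57BL/6 mice at postnatal day 0. Bulk RNA sequencing covered 3 controls and 3 animals with the genotype Hnrnpu knockout, made with loxP and Cre. Hnrnpu encodes a nuclear protein that binds RNA and chromatin. By the genotype labels control 1 was wild type, and controls 2 and 3 carried the word "Heterogenous", read here as heterozygous for the Hnrnpu allele. Neither the promoter that drives Cre nor any transgene shared by the groups is given in the sources used here. Values are normalized counts, and wherever 6 values are given they stand in the order controls 1, 2 and 3, then the libraries labelled knockout 1, 2 and 3.

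Serpins trap serine proteases, and some of them cysteine proteases, by offering a reactive loop that is cut and then locks the enzyme. Clade B serpins mostly stay inside the cell, where they face proteases released from lysosomes or granules. Stefins and cystatins block cysteine cathepsins, and Kazal, Kunitz and WAP domains are small secreted or membrane-bound plugs of serine proteases. In the epidermis such inhibitors restrain the kallikreins, membrane serine proteases and cathepsins that shed the outermost cells and process barrier proteins. Several human skin disorders with scaling or peeling come from loss of a single one of them, among them those of SERPINB7, SERPINB8, CSTA and CST6.

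Estimated depth lay between 6458205 and 9118476 assigned reads per library. The targeted gene was not lower in the libraries labelled knockout: Hnrnpu had 1450, 1318, 1160, 1565, 1342 and 1036 normalized counts (log2 difference −0.01 ± 0.20, SE, n = 3 against 3). The label therefore is used below as a label. By Xist and Y-linked transcripts, the 3 controls and knockout 1 were male and the libraries labelled knockout 2 and 3 were female. The suprabasal keratins Krt1 and Krt10 were abundant in all 6 libraries, as the tissue label asks. The summed suprabasal markers, mostly these keratins, ranged from 616638 to 664123 in controls and from 422558 to 699979 in libraries labelled knockout. Of the 5 suprabasal genes 1 rose (Dsc1, 1.18, adjusted p = 0.00535 by limma) and 4 did not pass. Among those 4, Krt10 and Dsg1a were lower without overlap of the groups. Of the other marker lists, all 7 melanocyte genes rose, and their sum went from 412 to 586 in controls to 2829 to 4682. The dermal fibroblast sum was 2094 to 3824 in controls and 960 to 1666 in libraries labelled knockout, with 3 of 8 measured genes higher (Col1a1, Col1a2, Col3a1) and 2 lower (Postn, Fbln1). Neutrophil genes summed to 3.27 to 7.97 in controls and to 707, 8699 and 182 in the libraries labelled knockout 1, 2 and 3. Of 4 neutrophil genes tested, S100a8, S100a9 and Cxcr2 rose, the S100 genes being made by stressed keratinocytes too. In knockout 2 S100a8 had 4682 and S100a9 had 3156 normalized counts, most of the sum. Ly6g, Mpo, Elane, Ltf and Camp were looked for and were not among the genes measured. Among 5 basal keratinocyte genes 1 rose (Krt14), among 8 macrophage and Langerhans cell genes 2 rose and 2 fell, and among 6 hair follicle genes 1 rose (Krt73). Kit, the single gene measured of 6 mast cell markers, rose, but melanocytes express it too. Pecam1, the single endothelial gene measured, did not pass the test.

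More protease inhibitor genes rose than fell in the libraries labelled knockout. At a Benjamini-Hochberg adjusted p of 0.05 over 12872 genes, with limma on log2(value + 1), 22 of the 43 rose, 9 fell and 12 did not pass. Over all genes tested 33.6% were called, 17.7% higher and 15.9% lower, against 51.2% of these genes higher and 20.9% lower. The median log2 difference of the 43 was 0.96, or 1.001 without Serpina3b, which was listed at 0 in every library labelled knockout, and that of all genes was −0.02. Without Serpina3b and Spink12, which passed the filter through 1 group alone, 21 of 41 were higher and 8 lower. The 3 values of each group did not overlap for 25 genes that were higher and 10 that were lower in the libraries labelled knockout, and over all genes 25.8% were separated with the knockout label higher and 25.0% with it lower. In bulk RNA, fewer cells of a type and less RNA per cell cannot be told apart. The differences ranged from a log2 of 7.46 for Spink12 to −6.04 for Wfdc21, and both directions occurred in clade B serpins, other serpins, cystatins and WAP inhibitors.

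**Figure D1:**
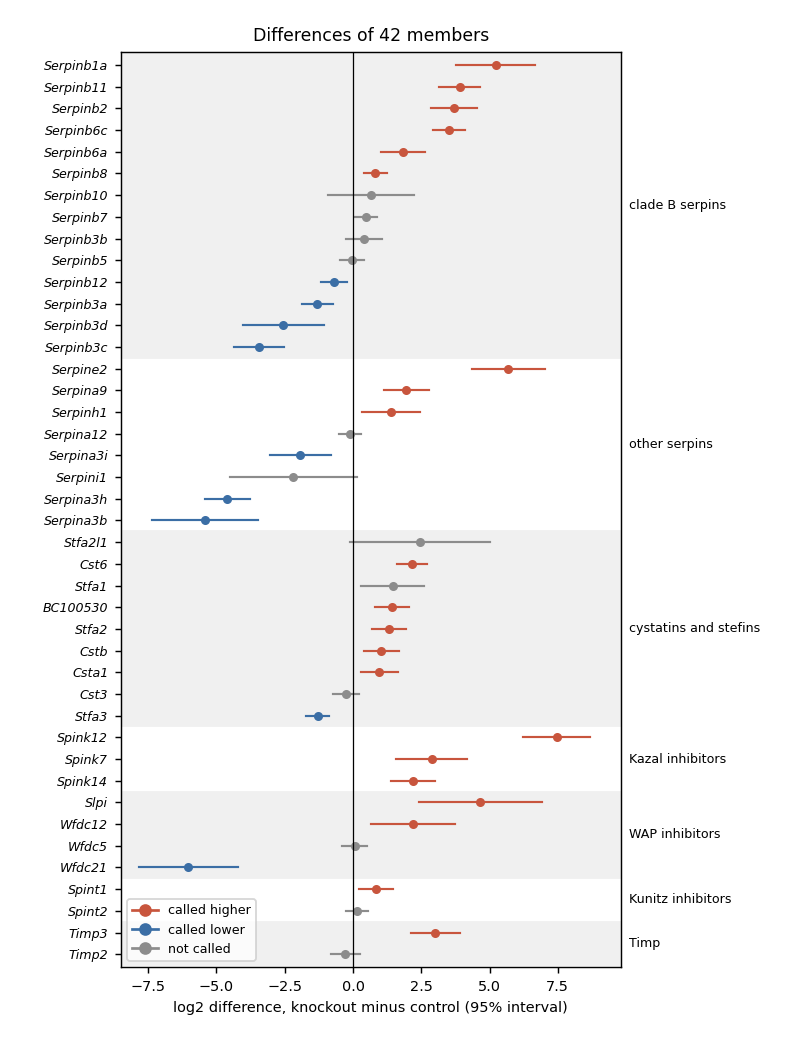
Log2 difference, libraries labelled knockout minus controls, of 42 of the inhibitor genes by family, as dots with 95% intervals from limma (n = 3 against 3). The 21 genes called higher lie right of 0 and the 9 called lower lie left of it, and the place of Serpina3b, listed at 0 in all 3 libraries labelled knockout, depends on the pseudocount of 1.

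**Figure D2:**
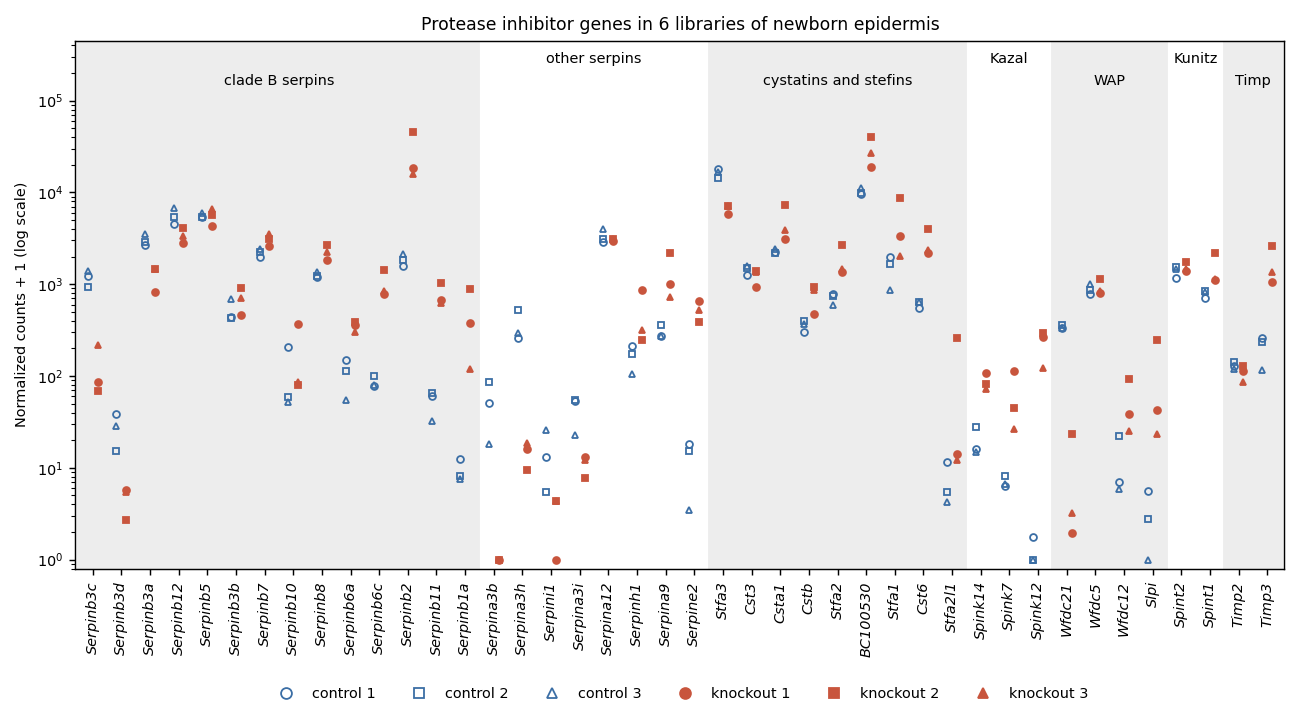
Normalized counts plus 1 on a log scale for 42 of the genes in the 6 libraries, controls as open and libraries labelled knockout as filled symbols, with the shape giving the replicate number. Stfa3 and BC100530 lead in the controls, and the lowest libraries labelled knockout hold 15915 for Serpinb2 and 19077 for BC100530.

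Many of the genes lie in clusters, of which some moved in one direction and others were mixed. Chromosome 1 carried 11 clade B serpins in the order Serpinb5, Serpinb12, Serpinb3a, Serpinb3d, Serpinb3b, Serpinb3c, Serpinb11, Serpinb7, Serpinb2, Serpinb10 and Serpinb8. With Serpine2, which lies on the same chromosome, 4 rose, 4 fell and 4 did not pass. All 3 genes on chromosome 13 (Serpinb1a, Serpinb6c, Serpinb6a) and all 3 Kazal genes, which neighbour one another (Spink14, Spink12, Spink7), rose. Of 5 on chromosome 12, Serpina9 rose, the 3 Serpina3 genes fell and Serpina12 did not pass.

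The stretch upstream of the chromosome 1 serpins is shown because a motif divides the cluster. RefSeq promoter windows (250 bases before to 50 after a start, GRCm38.p6) were matched for 31 of the 43 genes, in 34 windows. A loose form of the AP-1 motif, TGANTCA with N as any base, was searched on both strands. It was found in 8 of the 34 windows (23.5%), against 4.82% of 11533 windows of genes tested here and 6.75% of all 32851 windows. Those 8 windows belonged to 7 genes, Serpinb2, Serpinb5, Serpinb7, Serpinb8, Serpinb10, Serpinb11 and Serpinb12, which are the chromosome 1 clade B genes other than the 4 Serpinb3 genes. Both Serpinb2 windows hold the same match, and the second Serpinb12 window holds none. The match read TGAGTCA in Serpinb7 and Serpinb8, and TGAATCA or TGATTCA in the other genes, among them all that are printed. The 250 bases before the start are printed for the most abundant gene of the cluster that rose (Serpinb2, + strand, chr1:107511173-107511422), a gene with a pair of matches that also rose (Serpinb11, + strand, chr1:107362064-107362313), a gene that fell (Serpinb12, + strand, chr1:106934199-106934448) and a gene that did not pass the test (Serpinb5, + strand, chr1:106860925-106861174), with the AP-1 matches in capitals.
Serpinb2: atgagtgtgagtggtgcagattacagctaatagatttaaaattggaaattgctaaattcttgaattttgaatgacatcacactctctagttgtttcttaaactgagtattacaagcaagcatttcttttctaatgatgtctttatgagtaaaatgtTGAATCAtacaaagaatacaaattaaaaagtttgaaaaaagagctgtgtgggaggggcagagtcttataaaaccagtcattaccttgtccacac
Serpinb11: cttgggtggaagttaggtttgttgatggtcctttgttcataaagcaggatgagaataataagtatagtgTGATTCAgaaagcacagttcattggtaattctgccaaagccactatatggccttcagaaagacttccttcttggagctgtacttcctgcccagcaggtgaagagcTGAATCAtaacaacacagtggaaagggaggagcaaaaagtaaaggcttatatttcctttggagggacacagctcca
Serpinb12: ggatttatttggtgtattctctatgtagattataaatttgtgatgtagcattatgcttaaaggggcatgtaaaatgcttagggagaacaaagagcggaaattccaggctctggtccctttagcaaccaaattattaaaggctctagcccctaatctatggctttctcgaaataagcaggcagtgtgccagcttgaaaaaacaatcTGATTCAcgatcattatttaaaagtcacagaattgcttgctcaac
Serpinb5: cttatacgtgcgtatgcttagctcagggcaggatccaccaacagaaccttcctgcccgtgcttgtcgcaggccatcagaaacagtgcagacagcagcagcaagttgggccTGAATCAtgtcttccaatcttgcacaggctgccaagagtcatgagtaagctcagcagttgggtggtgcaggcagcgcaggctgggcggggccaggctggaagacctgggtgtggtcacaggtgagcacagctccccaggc
The matches began 94 bases before the start in Serpinb2 (position −94), at −181 and −76 in Serpinb11, at −45 in Serpinb12 and at −140 in Serpinb5. The motif thus stood upstream of genes that rose (Serpinb2, Serpinb8, Serpinb11), fell (Serpinb12) and did not pass (Serpinb5, Serpinb7, Serpinb10), and a match in these letters is no evidence of binding. The C/EBP-ATF composite TGATGNAA was found in 1 window of the 34 (2.94%), that of Serpinb6c at −233, against 2.11% of the windows of genes tested here.

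Among clade B serpins 6 of 14 rose, 4 fell and 4 did not pass, with a median log2 difference of 0.57. Serpinb2, plasminogen activator inhibitor 2, which blocks urokinase, was the most abundant riser of the clade: 1568, 1833 and 2113 normalized counts in controls and 18679, 45060 and 15915 in libraries labelled knockout. That is a log2 difference of 3.70 ± 0.36 (SE, adjusted p = 3.34e-04), and the lowest library labelled knockout stood far above the highest control. Per kb of transcript its mean went from 921 to 13302 normalized counts, and its rank among the 43 genes from 11 to 3. Serpinb11, another serpin of the same chromosome, had 59.6, 64.6, 31.1, 668, 1029 and 619, a log2 difference of 3.90 ± 0.32. The groups were again wide apart.

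The chromosome 13 genes rose from low control levels. Serpinb1a, which inhibits neutrophil serine proteases such as elastase, had 11.3, 7.08 and 6.54 in controls and 376, 878 and 120 in libraries labelled knockout. Its log2 difference was 5.23 ± 0.63 (adjusted p = 8.09e-04), and it was 4.55 without the library labelled knockout 2 and 5.98 without the library labelled knockout 3. The order of the 3 libraries labelled knockout in Serpinb1a was that of the neutrophil marker sum. Knockout 2 had 878 against a sum of 8699, and knockout 3 had 120 against 182. Serpinb2 and Serpinb11 had that order too, and 72.3% of all genes called higher were highest in knockout 2. The part of neutrophils in the Serpinb1a result was not tested. Serpinb6c had 77.8, 98.3, 79.3, 774, 1416 and 839 (log2 difference 3.51 ± 0.26, adjusted p = 1.04e-04). Serpinb6a, an inhibitor of cathepsin G, rose by a log2 of 1.84 ± 0.35 with every library labelled knockout above 300. In its annotated transcripts 25.1% of 50-base words also occur in another gene (12.5% in the overlapping Nqo2), so some of its reads may not be separable. The Serpinb6a call was lost with sex as a covariate (adjusted p = 0.0705).

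The 4 Serpinb3 genes, mouse relatives of the human squamous cell carcinoma antigens that inhibit cathepsins, changed composition. Serpinb3c had 1221, 935 and 1404 normalized counts in controls and 84.1, 68.1 and 215 in libraries labelled knockout, a log2 difference of −3.44 ± 0.40 (adjusted p = 6.8e-04). Serpinb3a, the most abundant of the 4, had 2653, 2894, 3490, 823, 1480 and 1464 (−1.30 ± 0.25, adjusted p = 0.00618). Both genes fell with no overlap between the groups. Serpinb3b did not pass, with 443, 426, 685, 460, 920 and 713 (0.41 ± 0.29, adjusted p = 0.304, 95% interval −0.26 to 1.07). Serpinb3d was low and fell, from 37.8, 14.2 and 27.8 to 4.67, 1.70 and 4.44 (−2.56 ± 0.65, adjusted p = 0.0182), and it did not pass without control 1 (adjusted p = 0.0867) or without control 3 (0.0760). The sum of the 4 genes was 4355, 4269 and 5607 in controls and 1372, 2470 and 2396 in libraries labelled knockout. Within that sum Serpinb3c held 28.0, 21.9 and 25.0% in controls and 6.13, 2.75 and 8.98% in libraries labelled knockout, whereas Serpinb3b went from 10.2, 9.98 and 12.2% to 33.5, 37.3 and 29.8%. The share of Serpinb3a was between 59.9 and 67.8% in all 6 libraries. These genes resemble one another: between 12.2 and 15.0% of their 50-base words also occur in another gene, so part of a difference could come from how reads were shared out, which was not tested.

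Serpinb3b and Serpinb3c lie next to each other among the genes measured and differ in outcome, so their upstream windows are set side by side. The 250 bases before the start (Serpinb3b, − strand, chr1:107161115-107161364, and Serpinb3c, − strand, chr1:107278372-107278621, GRCm38.p6) were aligned end to end, and 229 of 260 alignment columns (88.1%) were identical. Of the other columns 11 differed and 20 faced a gap, and capitals mark both kinds.
Serpinb3b: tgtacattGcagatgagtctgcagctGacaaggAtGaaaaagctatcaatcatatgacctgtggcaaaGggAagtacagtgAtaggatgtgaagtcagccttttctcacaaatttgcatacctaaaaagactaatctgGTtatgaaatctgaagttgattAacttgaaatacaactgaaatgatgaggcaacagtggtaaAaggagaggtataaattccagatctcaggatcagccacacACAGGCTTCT
Serpinb3c: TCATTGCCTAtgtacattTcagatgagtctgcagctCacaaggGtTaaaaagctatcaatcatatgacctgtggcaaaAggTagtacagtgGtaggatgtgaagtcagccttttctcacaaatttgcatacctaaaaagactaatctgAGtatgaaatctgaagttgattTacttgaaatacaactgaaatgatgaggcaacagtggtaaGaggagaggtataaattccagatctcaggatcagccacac
Over all alignment columns identity was lower between the other Serpinb3 windows, from 77.0% for Serpinb3a with Serpinb3b down to 44.5% for Serpinb3a with Serpinb3d. Those alignments ran over 272 to 298 columns, against 260 for the printed pair. Columns facing a gap count as not identical, so these percentages do not measure how alike the bases that align are. Neither printed window held the AP-1 or composite letters.

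The remaining clade B genes had log2 differences between −0.70 and 0.81. Serpinb12, which inhibits trypsin-like proteases and was the third highest of the 43 per kb in controls (3296 normalized counts per kb), had 4533, 5440, 6725, 2821, 4051 and 3388. It fell by 0.70 ± 0.21 on the log2 scale (adjusted p = 0.0358) with separate groups, but did not pass without control 2 (0.102), control 3 (0.135), knockout 1 (0.0897) or knockout 3 (0.0616). Serpinb8, an inhibitor of furin, rose by 0.81 ± 0.19 (adjusted p = 0.0125), which was lost without control 2 (0.0530). Serpinb5 (maspin, a serpin without inhibitory activity) did not pass, with 5356, 5468, 5978, 4326, 5628 and 6665 and an interval of −0.49 to 0.42. Serpinb7 had 1981, 2239, 2423, 2591, 3129 and 3566, all libraries labelled knockout above all controls (0.48 ± 0.18, adjusted p = 0.0746). It passed with adjacent animal numbers as a block (adjusted p = 0.0246) and without knockout 1 (0.0441). Serpinb10 had 205, 58.4, 51.5, 372, 78.3 and 85.4. Control 1 and knockout 1, whose animal numbers are adjacent, were its highest libraries in their groups, and the knockout value was higher in every pair, so the adjusted p was 0.475 without the block and 0.0325 with it. Serpinb10 shares 7.0% of its 50-base words with the far more abundant Serpinb2.

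Serpins of other clades split by gene group: 4 rose, 3 fell and 2 did not pass, with a median of −0.10. Serpine2 (protease nexin 1, which blocks thrombin and plasminogen activators) had 17.4, 14.2 and 2.45 in controls and 651, 388 and 522 in libraries labelled knockout, a log2 difference of 5.69 ± 0.59 (adjusted p = 4.13e-04) that was 4.93 without control 3. Serpina9, known from germinal centre B cells, had control values of 271 to 362 and values of 994, 2178 and 727 in libraries labelled knockout (1.96 ± 0.37), and did not pass with sex as a covariate (adjusted p = 0.0899). Serpinh1 (HSP47, a collagen chaperone and not a protease inhibitor) went from 209, 174 and 104 to 867, 248 and 316 (1.39 ± 0.46, adjusted p = 0.0477), and lost its call without any 1 of the 3 controls (0.0664 to 0.148) and without knockout 1 (0.84, 0.0899). Knockout 1 was also the highest library for Serpinh1.

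The 3 Serpina3 genes, relatives of alpha-1-antichymotrypsin, fell together. Serpina3h had 261, 522 and 294 in controls and 15.0, 8.51 and 17.7 in libraries labelled knockout (−4.60 ± 0.37, adjusted p = 1.3e-04). Serpina3b had 49.8, 84.1 and 17.2 in controls and was listed at 0 in all 3 libraries labelled knockout (adjusted p = 0.00244), so no fold is given. Serpina3i had 52.9, 54.0, 22.1, 12.1, 6.81 and 11.1 (−1.93 ± 0.49, adjusted p = 0.0185), without overlap, but did not pass without control 1 (0.0798) or control 2 (0.0888). The sum of the 3 was 364, 660 and 334 in controls and 27.1, 15.3 and 28.8 in libraries labelled knockout, 5.25% of the control mean. Serpina3h is annotated as a transcribed pseudogene, and 21.9% of its 50-base words occur elsewhere, mostly in Serpina3i. Serpina12 (vaspin, an inhibitor of kallikrein 7) lies in the same cluster and did not pass: 2855, 3105, 4027, 2961, 3100 and 3145, with an interval of −0.51 to 0.31. Serpini1 (neuroserpin) was low, with 12.1, 4.43, 24.5, 0, 3.40 and 3.33, and did not pass (adjusted p = 0.128) although the groups did not overlap.

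The stefin cluster on chromosome 16 (Csta1, Stfa2l1, Stfa1, BC100530, Stfa2 and Stfa3, in that order) holds the most abundant genes of the 43, and its last members moved in opposite directions. Windows of the neighbours Stfa2, which rose, and Stfa3, which fell, are printed for that reason (Stfa2, − strand, chr16:36408364-36408613, and Stfa3, − strand, chr16:36455393-36455642, GRCm38.p6, 250 bases before the start). In their alignment 203 of 253 columns (80.2%) were identical, and capitals mark bases that differ or face a gap.
Stfa2: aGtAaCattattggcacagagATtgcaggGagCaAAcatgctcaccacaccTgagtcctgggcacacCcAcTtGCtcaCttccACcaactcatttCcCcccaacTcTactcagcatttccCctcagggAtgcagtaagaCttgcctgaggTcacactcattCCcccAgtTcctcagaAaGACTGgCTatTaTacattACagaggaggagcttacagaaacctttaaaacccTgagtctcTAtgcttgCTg
Stfa3: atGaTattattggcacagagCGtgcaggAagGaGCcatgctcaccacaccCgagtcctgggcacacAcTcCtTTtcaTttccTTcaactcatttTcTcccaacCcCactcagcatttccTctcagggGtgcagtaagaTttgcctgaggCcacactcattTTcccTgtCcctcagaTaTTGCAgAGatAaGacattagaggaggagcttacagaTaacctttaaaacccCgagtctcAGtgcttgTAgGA
Other stefin windows were as alike, from 80.4% for Stfa1 with Stfa2l1 to 89.4% for Stfa2 with Stfa2l1. With Csta1 between 37.4 and 39.5% of columns were identical, but those alignments ran over 339 to 342 columns. Many of their columns faced gaps, so these percentages do not measure how alike the bases that align are. None of the 5 matched stefin windows held either motif.

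Stfa3 was the leading inhibitor of the control epidermis, at a mean of 39568 normalized counts per kb of transcript against 16556 for BC100530, and the pair changed places in the libraries labelled knockout (16208 and 46137 per kb). Stfa3 had 17873, 14421 and 16612 normalized counts in controls and 5799, 7062 and 7172 in libraries labelled knockout, and so fell by 1.29 ± 0.18 on the log2 scale (adjusted p = 0.00166). BC100530, a stefin A gene, had 9648, 9825, 11271, 19077, 39736 and 26863 and rose by 1.42 ± 0.27 (adjusted p = 0.00578). Neither gene overlapped between groups, and BC100530 spread widely among the libraries labelled knockout. BC100530 lost its call under quantile normalization (0.41, adjusted p = 0.0717), under which Stfa3 fell further (−2.01), and with sex as a covariate (0.90, adjusted p = 0.0938). None of the 50-base words of Stfa3 occurs in another gene, whereas 36.2% of those of BC100530 do (17.5% in Stfa1).

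Of the other 4 stefin genes of the cluster, Stfa2 and Csta1 rose and Stfa1 and Stfa2l1 did not pass. Stfa2 had 790, 751, 600, 1373, 2681 and 1480 (1.31 ± 0.27, adjusted p = 0.00771), and lost its call with sex as a covariate (0.95, 0.132). Stfa1 had 1979, 1657, 873, 3332, 8660 and 2029, with no overlap, but did not pass (1.45 ± 0.51, adjusted p = 0.0565). In the fit with adjacent animal numbers as a block Stfa1 passed (adjusted p = 0.00604), as it did without knockout 3 (0.0159). Csta1, the mouse cystatin A, rose by 0.96 ± 0.30 (adjusted p = 0.0363) and lost its call without any 1 of the 3 controls (0.0823 to 0.106) and under quantile normalization (0.0942). Stfa2l1 was low except in one library, with 10.6, 4.43, 3.27, 13.1, 257 and 11.1 (adjusted p = 0.121), the high value being that of the library labelled knockout 2, which also had the highest neutrophil marker sum. Stefins of this cluster are known from neutrophils as well as from keratinocytes, and the part of neutrophils here was not tested. The 6 genes summed to 32544, 28827 and 31783 in controls and 32696, 65712 and 41415 in libraries labelled knockout, and without Stfa3 to 14671, 14406, 15172, 26898, 58649 and 34243. Stfa3 held 54.9, 50.03 and 52.3% of that cluster in controls and 17.7, 10.7 and 17.3% in libraries labelled knockout, and BC100530 29.6, 34.1 and 35.5% against 58.3, 60.5 and 64.9%.

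**Figure D3:**
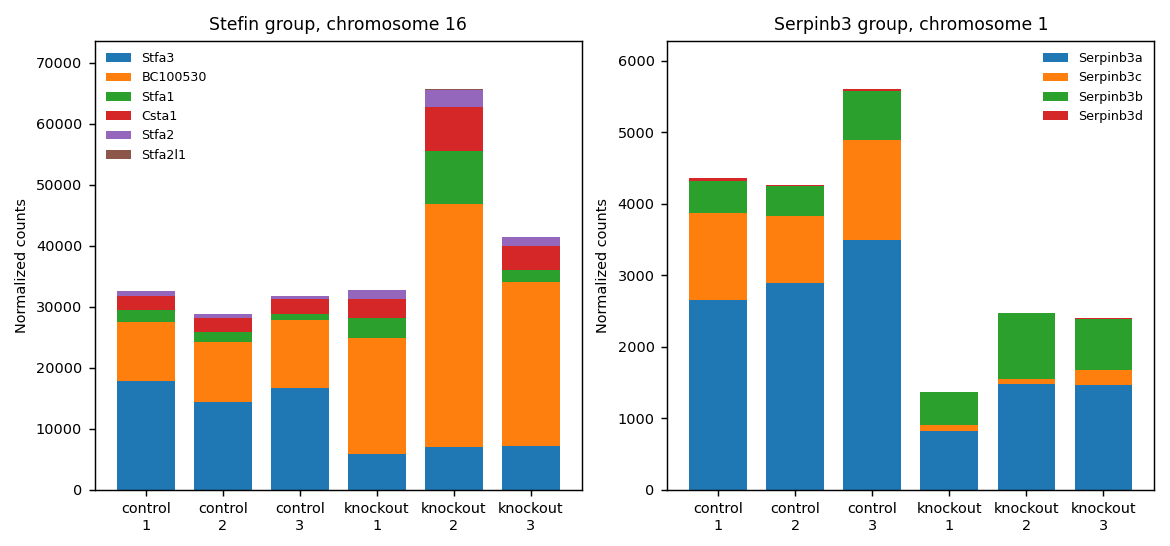
Normalized counts per library, stacked by gene, for the 6 stefin genes of chromosome 16 (left) and the 4 Serpinb3 genes of chromosome 1 (right), one bar per library. The Stfa3 segment shrinks from between 14421 and 17873 to between 5799 and 7172 while BC100530 grows, and within the Serpinb3 bars the Serpinb3c segment shrinks while Serpinb3b keeps or gains.

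Of the 9 cystatins and stefins as a family 5 rose, 1 fell and 3 did not pass, with a median of 1.31. Cst6, the secreted cystatin E/M that blocks legumain and cathepsin L, had 553, 638, 634, 2177, 3968 and 2375. Its log2 difference of 2.17 ± 0.24 (adjusted p = 5.83e-04) held its call in every fit that left out a library. Cstb (stefin B) rose by 1.04 ± 0.28 (adjusted p = 0.0222), with 297 to 397 in controls and 471 to 927 in libraries labelled knockout, and lost its call without control 1 (0.0793), control 3 (0.0567), knockout 2 (0.0633) or knockout 3 (0.0518). Cst3 (cystatin C, secreted by most cells) did not pass, at 1267 to 1593 in controls and 927 to 1393 in libraries labelled knockout (interval −0.74 to 0.20).

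All 3 Kazal inhibitors measured rose, with a median of 2.88. Spink12 went from 0.755, 0 and 0 to 268, 293 and 121 normalized counts, a log2 difference of 7.46 ± 0.54 (adjusted p = 9.7e-05). It passed the filter through the libraries labelled knockout alone, and without that filter the adjusted p was 9.78e-05. That fit still covered only the 12894 genes of the deposited values, so it cannot exclude an earlier selection on low values. Its size depends on the pseudocount, since an estimated 1 read in the 3 controls together lay behind the control values: it was 5.37 with a pseudocount of 5 and 8.29 with 0.5. Spink7, best known from the oesophagus, had 5.29, 7.08, 5.72, 112, 44.2 and 25.5 (2.88 ± 0.58, adjusted p = 0.00698). Spink14 rose by 2.20 ± 0.35 (adjusted p = 0.00271), from 13.9 to 26.6 in controls to 71.0 to 107 in libraries labelled knockout. Spink7 and Spink14 were highest in knockout 1, and each library labelled knockout exceeded each control in all 3 genes.

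Of the 4 WAP inhibitors 2 rose, 1 fell and 1 did not pass (median 1.13). Slpi, the secretory leukocyte protease inhibitor, which blocks neutrophil elastase and cathepsin G, had 4.53, 1.77 and 0 in controls and 42.1, 247 and 22.2 in libraries labelled knockout (4.66 ± 0.99, adjusted p = 0.00874). An estimated 6, 2 and 0 reads lay behind its control values, and its log2 difference was 3.32 with a pseudocount of 5. It was 4.003 without control 3, 3.67 without knockout 2 and 5.38 without knockout 3, and it did not pass with sex as a covariate (4.12, adjusted p = 0.118). The order of the 3 Slpi values in libraries labelled knockout was again that of the neutrophil marker sum, and also that of Serpinb2 and Serpinb11. The part of neutrophils was not tested. Wfdc12 rose by 2.20 ± 0.67 (adjusted p = 0.0350), from 4.90 to 21.3 in controls to 24.4 to 91.9. That call was lost without control 1 (0.0986), control 3 (0.105), knockout 1 (0.0659) or knockout 2 (0.106), and the difference was 2.80 without control 2. Wfdc21 had the steepest fall of the 43 with a value above 0 in both groups: 336, 360 and 334 normalized counts in controls and 0.935, 22.1 and 2.22 in libraries labelled knockout. Its log2 difference was −6.04 ± 0.79 (adjusted p = 0.00114), −5.32 without knockout 1 and −7.11 without knockout 2. The size depends on the pseudocount, being −5.05 with a pseudocount of 5 and −6.27 with 0.5. An estimated 1, 13 and 2 reads lay behind the values of the libraries labelled knockout. Controls were tight (mean 344 ± 14.6, SD, n = 3), and knockout 2 was the highest of the libraries labelled knockout. Wfdc5 did not pass, with 791 to 997 in controls and 805 to 1140 in libraries labelled knockout (interval −0.39 to 0.50).

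Of the Kunitz inhibitors of membrane serine proteases 1 rose and 1 did not pass. Spint1 (HAI-1, which restrains matriptase) rose by 0.84 ± 0.27 (adjusted p = 0.0438), from 714 to 851 in controls to 1118, 2212 and 1144. The Spint1 call was lost without any 1 of the 3 controls (0.0928 to 0.127) and without knockout 2 (0.0554). Spint2 (HAI-2) did not pass, at 1161 to 1540 in controls and 1399 to 1734 in libraries labelled knockout, with an interval of −0.27 to 0.56. Timp3, an inhibitor of metalloproteinases and ADAM proteases that binds the matrix, had 260, 234, 116, 1066, 2585 and 1348 (3.01 ± 0.39, adjusted p = 0.00111). In Timp3 the groups were far apart, but 21.4% of its 50-base words also occur in other genes (20.8% in Syn3, the gene that surrounds it). Timp2, the soluble relative, did not pass (119 to 141 in controls and 84.3 to 128 in libraries labelled knockout, interval −0.81 to 0.25).

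Genes on the other side of the balance were taken as a list of target proteases, with their receptors and cofactors, for which 55 of 104 symbols were tested. Of these 21 rose and 5 fell (38.2% and 9.09%), with a median log2 difference of 0.45 against 0.96 for the inhibitors and −0.02 for all genes. The 6 with the smallest adjusted p were 5 that rose and 1 that fell. Klk6, a kallikrein, had 46.8, 39.0, 38.4, 1443, 4240 and 697 (5.26 ± 0.55, adjusted p = 4.31e-04). Ctsl (cathepsin L, a target of Cst6 and the stefins) had 806, 821, 840, 4043, 7530 and 3587 (2.54 ± 0.27). In both genes the lowest library labelled knockout stood above the highest control. The matrix proteases Adamts1 and Adamts5, which Timp3 can inhibit, rose by 3.44 ± 0.40 and 3.63 ± 0.54, and Plat, the tissue plasminogen activator, a target of Serpine2, rose by 3.40 ± 0.53 from control values of 4.43 to 5.29. Tmprss4, a membrane serine protease, fell by 1.67 ± 0.24 on the log2 scale (adjusted p = 0.00172). Of 38 genes listed as inhibitors of other families, not all of which are established inhibitors, 16 were tested. Of these 4 rose (25.0%) and 0 fell (median 0.20). Over all genes tested 17.7% were higher and 15.9% lower, 33.6% together. The risers included Fetub (4.57 ± 0.52), a fetuin, and Cast (calpastatin, the calpain inhibitor, 1.26 ± 0.20). The list also holds Bst1, an ectoenzyme that is no inhibitor, which rose too. With adjacent animal numbers as a block, 10 of these 16 passed, in a fit that called 44.9% of all genes.

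**Figure D4:**
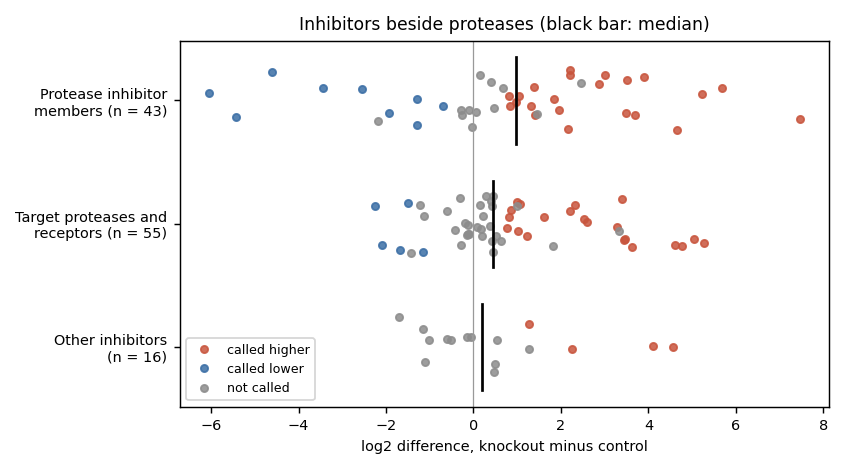
Log2 difference, libraries labelled knockout minus controls, of each tested gene (1 point a gene, spread vertically to be seen) in the 43 inhibitor genes, the 55 target proteases and receptors and the 16 other inhibitors, with the median as a black bar. The medians are 0.96, 0.45 and 0.20, and genes called lower appear in the first 2 sets.

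The libraries labelled knockout did not contribute alike. The library labelled knockout 2 was the highest of the 3 for 29 of the 43 genes and for 18 of the 22 that rose, against 37.7% of all genes tested and 72.3% of all genes called higher. That library was also the shallowest, with 1.70 normalized counts to an estimated read, and had the highest sum of neutrophil markers. Together the 43 genes held 0.895, 0.826 and 0.905% of all normalized counts in controls and 0.989, 1.40 and 1.09% in libraries labelled knockout. Much of that total came from a pair of genes: BC100530 and Serpinb2 made up 18.3 to 19.8% of it in controls and 46.4 to 55.3% in libraries labelled knockout. The other 41 genes summed to 50095, 48907 and 54084 in controls and 43258, 68653 and 49334 in libraries labelled knockout, so that these sums overlapped.

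The split between rises and falls depends on the scaling. With library totals set equal, the median of all genes was −0.36 and the calls over all genes were 1440 higher and 3065 lower, against 2279 and 2049 as deposited. The inhibitor genes then split 17 higher and 10 lower, where Csta1, Cstb, Serpinh1, Spint1 and Wfdc12 lost their calls and Cst3 became lower (−0.61, adjusted p = 0.0293). Under quantile normalization the split was 19 and 12, with Cst3, Serpina12 and Serpinb5 called lower. With sex as a covariate, a fit in which the single male library labelled knockout carries the comparison, 11 were higher and 6 lower. Besides those given above, the calls of Csta1 (0.438), Cstb (0.323), Serpinb8 (0.177), Spint1 (0.405), Wfdc12 (0.238), Serpina3i (0.180), Serpinb12 (0.0744) and Serpinb3d (0.173) were lost in it, each with its adjusted p in brackets. In all 16 alternative fits Cst6, Serpinb11, Serpinb1a, Serpinb2, Serpinb6c, Serpine2, Spink12, Spink14, Spink7 and Timp3 were called higher, and Serpina3b, Serpina3h, Serpinb3a, Serpinb3c, Stfa3 and Wfdc21 lower. Spink12 and Serpina3b are listed although each passed the filter through 1 group alone, so their calls add no support. How many of all called genes kept their calls in every fit was not counted. By adjacent animal numbers, 27 genes were higher in the library labelled knockout in all 3 pairs, 12 were lower in all 3 and 4 were mixed. The same count was not made over all genes, so no trait of the inhibitor genes can be read from it.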

How the data were processed

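Epidermal RNA of 6 newborn mice, 3 controls and 3 with the Hnrnpu knockout label, was sequenced from TruSeq libraries. The deposited signal values are normalized counts per gene that the authors made, 1 row per sample and 12894 Ensembl gene IDs. TopHat2 2.1.0, Partek 9.0.20.0202 and the build mm39 are named, without a role, per the submitters' processing notes, with normalization and read assignment not given in the sources used here. By their size, 80.9 to 83.4% of those up to 20 reads were whole multiples, within 0.02, of a step of 0.755 to 1.70 normalized counts. A count model was therefore not applied. The depth was estimated by dividing each value by that step, and an exact 0 is given as listed at 0. The titles carry separate numbers, read as animals. Intervals and p-values rest on the spread between these animals, moderated across genes. The reported fit did not use adjacent animal numbers. Its spread also takes in the genotypes mixed among the controls and the sexes mixed among the libraries labelled knockout.

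Symbols matched 12771 IDs and 123 had none. The annotation at hand is GRCm38, not mm39, so no gene coordinates are given. Promoter windows and their coordinates are RefSeq's on GRCm38.p6. Cstb, Spink12, Serpinb1a, BC100530, Wfdc5, Serpina9, Wfdc21, Spink7, Cst6, Spink14 and Serpina3h are among those without a window. A comparison of proteins was planned and not run. Values per kb divide by the longest protein-coding transcript, or the longest of any kind for Serpina3h. Words of 50 bases were compared with all other annotated transcripts, the read length not being stated.

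Genes above 1 in at least 3 of 6 libraries (12872) were tested by limma 3.58.1 in R 4.3.3 (lmFit, eBayes with trend) on log2(value + 1), which understates the change of low genes. Benjamini-Hochberg adjustment ran over all genes tested, at 0.05. Errors are moderated SE and intervals are at 95%. The fit was tested on simulated data. Alternatives were other pseudocounts and filters, library totals set equal, quantile normalization, no trend, a robust fit, a block, sex, and leaving out each library. Those for the protease and other inhibitor lists were added after seeing the data.

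The members and lists were chosen with earlier results of these data known. The rule for named genes gave all 6 values for the 10 largest rises, all 9 falls, the 6 highest in controls and the 4 highest not called, at most 6 proteases and 3 other inhibitors. The values of 1 member, which stays in the counts, are not reported here. Full values of Serpinb3b, Serpinb10, Serpini1, Stfa2, Stfa2l1, Cst6 and Serpinh1, and the marker genes named, were chosen after their values were seen.

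Animal numbers are adjacent across groups. Library deviations from their group mean correlated by 0.37, 0.23 and 0.36 in adjacent pairs and by −0.28 to −0.07 in others. Adjacent numbers were therefore taken as pairs, from the data and not from a stated litter. Deviations within a group cancel out, so the values of the other pairs are not independent of those of the adjacent pairs. The block was then fitted to the same data.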

Additional observations from a re-analysis of the deposited data

How the results depend on the processing

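Of 687 results under alternatives, 610 kept their direction and side of the threshold, 56 lost and 9 gained a call and 12 changed sign. With a replicate block made of adjacent animal numbers, 25 members were higher and 9 lower, and 10 of the other inhibitors passed. Beyond these and the calls of Serpinb7, Serpinb10 and Stfa1, the block changed no call of a member. With sex as a covariate, 11 members were called higher, 8 target proteases passed in place of 26, and 1 other inhibitor in place of 4. Leaving out 1 library gave 17 to 22 members higher, 7 to 9 lower, and 16 (without control 1) to 28 target proteases, and 15 of the 22 rises and 6 of the 9 falls were called in all 6 such fits. The matching share of all called genes was not counted. Over all genes tested, 4328 were called, 5781 with the block (2952 higher, 2829 lower), 1289 with sex as a covariate, and 2644 to 4509 without 1 library. The cause was not tested.

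Sign changes were limited to members that had not passed. With totals set equal Spint2 was −0.20 and Wfdc5 −0.29, under quantile normalization −0.13 and −0.17, and with sex as a covariate Serpinb3b was −0.14 and Wfdc5 −0.13. Leaving out 1 library gave Serpina12 −0.20 to 0.043, Serpinb10 −0.060 to 1.29, Serpinb5 −0.18 to 0.13 and Wfdc5 −0.10 to 0.15. With 3 libraries a group, low members such as Serpini1 and Serpina3b rest on few reads, and smaller differences may be missed.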
